A study of Mus musculus with 17 samples.

Results

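Mouse lacrimal gland organoids growing in expansion medium were compared with the lacrimal gland itself. The comparison uses 6 of the 17 RNA-seq libraries of the series, chosen by their labels: 3 of uncloned ("bulk") organoids in expansion medium and 3 of gland tissue. The bulk EM organoids were wildtype lines 6, 7 and 8, grown for 7 days in expansion medium (EM) and retrieved from a basement membrane extract before lysis. The gland tissue libraries carry the same wildtype numbers 6, 7 and 8, with no treatment. The labels give no age, sex or strain for either group, and they do not say that a line was grown from the gland with the same number. The other libraries are of the same lines in differentiation medium and of wildtype and Pax6-KO organoid clones.

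The lacrimal gland makes the watery layer of the tear film. Its acinar cells build tear proteins in an enlarged endoplasmic reticulum (ER), store them in granules and release them with salt and water, ducts carry and modify the fluid, and myoepithelial cells squeeze it out. Organoids are epithelial structures grown from gland cells in a gel with growth factors, and an expansion medium is made to keep such cells dividing. In bulk libraries like these, fewer cells of a type and less RNA per cell cannot be told apart. Values are CPM, counts scaled to 1000000 per library on trimmed-mean library sizes, with lines 6, 7 and 8 in that order. Log2 differences are EM organoids minus gland tissue, ± their standard error, and adjusted p-values are from edgeR's quasi-likelihood test with Benjamini-Hochberg adjustment over all 13713 genes tested. Nothing in the labels says how many animals stand behind the 3 numbers, so these p-values measure the spread between libraries, which may be partly technical.

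A few tear protein genes held most of the gland counts and almost none of the organoid counts. There were 14 genes with at least 1% of the counts in a gland library: the mucin-like Mucl2, Obp1a and Obp1b, which bind odorants, the prolactin-inducible protein Pip, 6 secretoglobins (Scgb1b2, Scgb2b2, Scgb2b24, Scgb2b20, Scgb1b20 and Scgb2b7) and the predicted genes Gm5938, Gm1553, Gm14743 and Gm14135. Together they took 0.000344, 0.000538 and 0.000968% of the counts in EM organoids, which is 51, 89 and 142 counts, against 72.2, 72.3 and 71.1% in gland tissue. Mucl2 alone took 16, 17.8 and 16.9% of the gland counts. The 10 genes with most counts in each library held 5.98, 6.24 and 6.06% in EM organoids, against 67.0, 67.6 and 65.5% in gland tissue. In EM organoids the genes with the highest mean share included Ltf, mt-Co1, Eef1a1, Anxa1, Lcn2, Ly6e, Pkm, Scd2 and Gapdh, led by Ltf with 1.61, 1.68 and 1.62% of counts. In gland tissue the 10 were Mucl2, Obp1a, Gm5938, Scgb1b2, Scgb2b2, Obp1b, Scgb2b24, Gm1553, Gm14743 and Scgb2b20.

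**Figure D1:**
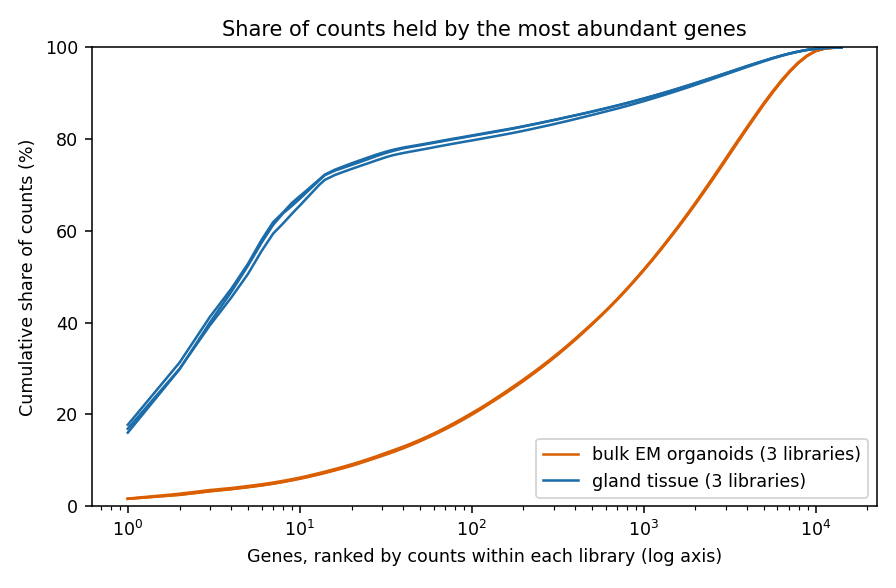
Cumulative share of counts (%) on the y axis against the number of genes, ranked by their counts within each library, on a log x axis. The 10 top genes hold 5.98, 6.24 and 6.06% in the EM organoid curves, against 67.0, 67.6 and 65.5% in the gland tissue curves.

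The direction in which 3037 genes were called depended on how this skew was handled in scaling the libraries. The libraries had similar totals, 14674166 to 16542195 counts in EM organoids and 14144109 to 19207469 in gland tissue, but without the 14 genes the gland libraries held only 3920483 to 5545301 counts. Trimmed-mean scaling, which sets the typical gene to no difference, called 5130 genes higher in EM organoids (37.4% of those tested) and 5129 lower (37.4%), with a median log2 difference of 0.01. Scaling by total counts called 11493 higher (83.8%) and 1302 lower (9.49%), with a median of 2.06. The shift between both scalings was 2.06 on the log2 scale, so a gene below zero by less than that under one scaling lies above it under the other. Leaving the 14 genes out of the library sizes called 6111 higher and 4232 lower, with a median of 0.24, a shift of 0.23 from the trimmed mean.

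All 5130 genes that were higher with trimmed-mean scaling were also higher with total-count scaling. Of the 5129 lower genes, 1302 were lower with both (9.49% of genes tested), 3037 were called higher with total counts, and 790 were not called. Only counts relative to other RNA were measured, so neither scaling gives RNA per cell. Of 10259 called genes (74.8%), 10119 had groups that did not overlap in CPM. With a log2 difference of at least 1, there were 3212 genes higher and 3104 lower with trimmed-mean scaling, against 10592 and 1133 with total counts. The share of lower calls that held differed between levels of expression. Of 104 genes at 1000 CPM or more in a group, 31 were higher in EM organoids under both scalings, and 43 of the 70 lower ones kept their direction. Of 1711 genes between 100 and 1000 CPM, 778 were higher under both, but only 179 of the 784 lower ones held, and of 7747 genes between 10 and 100 CPM, 527 of the 2926 lower ones held. Of 3359 genes between 1 and 10 CPM, 545 of the 1316 lower ones held, so the share did not follow expression in one direction.

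**Figure D2:**
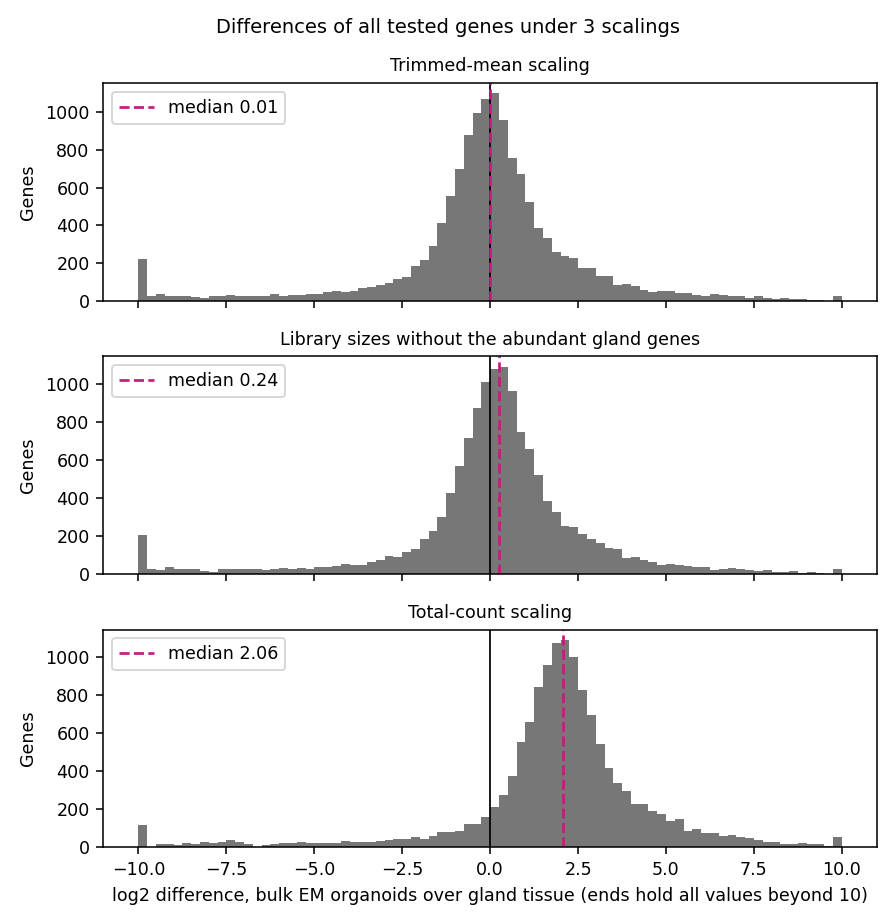
Number of tested genes (y axis) by log2 difference, EM organoids over gland tissue (x axis), with trimmed-mean scaling (top), with library sizes summed without the 14 abundant gland genes (middle) and with total-count scaling (bottom). The dashed line marks the median, at 0.01, 0.24 and 2.06.

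The libraries within a group were close to each other. Pearson's r of log2(CPM + 1) across genes was 0.995 for all 3 pairs of EM organoids and 0.983 to 0.987 for pairs of glands, against 0.651 to 0.669 between an organoid and a gland library. Xist, the transcript of the silent X chromosome, was present in all 6 libraries, with 932, 899 and 778 CPM in EM organoids, against 523, 454 and 464 CPM in gland tissue, while the Y-linked Ddx3y, Eif2s3y, Kdm5d and Uty had no counts in any. The tissue label fitted its markers: of the gland's typical tear protein genes, Mucl2, Obp1a, Car6 and Lpo were abundant in all 3 gland libraries. Of 20 salivary gland genes, 10 had no count in any of the 6 libraries, among them Smgc, Muc19 and Bpifa2, and the list summed to 2.56 to 3.06 CPM in EM organoids, against 2.37 to 5.91 CPM in gland tissue. Of 17 harderian and sebaceous gland genes, Elovl3, Far2 and Awat1 had no count in the 6 libraries. The others include lipid genes of many tissues, and the list summed to 600.3 to 646 CPM in EM organoids, against 291 to 343 CPM in gland tissue.

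Nearly all tear protein genes tested were lower in expanding organoids. Of 39 such genes, 30 were tested; 26 were lower, 3 were higher and 1 was not called, with a median log2 difference of -14.05, beside 37.4% of all tested genes lower, 37.4% higher and a median of 0.01. With total counts, 25 were lower and 4 higher, beside 9.49% and 83.8% of all tested genes. Of the 39 genes, 15 had no organoid count, and 6 of these had no gland count. Genes without an organoid count could pass the filter on low counts only through other libraries and could not be called higher. The count of the list is thus partly set by the filter. The same shares of all tested genes are the ones to set beside the counts of every list below. Their summed level was 14881 to 15289.9 CPM in EM organoids, against 1449427 to 1532369 CPM in gland tissue; the gland sums are this large because the trimmed mean sets a gland library's effective size below its count. Scgb1b20, a secretoglobin, had 0, 0 and 0 CPM in EM organoids, against 38058, 33209 and 40745 CPM in gland tissue. It was at least 951512-fold lower in EM organoids with trimmed-mean scaling, a bound set at 3 counts over the 3 organoid libraries. All fold bounds and fold ratios below use that scaling. Total counts would make those of falls smaller and those of rises larger. Dnase1, the secreted deoxyribonuclease, had 0, 0 and 0 CPM in EM organoids, against 8293, 11029.7 and 10254 CPM in gland tissue, and was at least 249363-fold lower. No organoid library held a count of either gene, while every gland library held 8293 CPM or more.

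Obp1a, a lipocalin that binds small odorants, had 0.125, 0.219 and 0.373 CPM in EM organoids, against 356109, 349596 and 322406 CPM in gland tissue (log2 difference -20.42 ± 0.63, adjusted p = 3.13e-10). Obp1b had 0, 0 and 0.166 CPM in EM organoids, against 129467, 140017 and 126501 CPM in gland tissue (log2 difference -21.07 ± 0.55, adjusted p = 9.82e-11). Mucl2 had 0.083, 0 and 0.786 CPM in EM organoids, against 413777, 457665 and 417047 CPM in gland tissue (log2 difference -20.52 ± 0.96, adjusted p = 6.39e-09). The few organoid counts of these genes were highest in line 8 for all 3, at levels below 1 CPM. With predicted genes left out, the 10 largest falls among genes of at least 100 CPM that held under both scalings were of tear protein genes and further secretoglobins: Scgb1b20, Obp1b, Mucl2, Dnase1, Obp1a, Scgb2b24, Scgb2b7, Scgb1b2, Scgb1b24 and Scgb1b7. Secretoglobin and odorant-binding protein genes have near-identical copies, so the split of reads between the copies is uncertain, but every secretoglobin and odorant-binding protein gene tested on the list was lower under both scalings.

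The 3 that rose were defence proteins of tears. Ltf, the iron-binding lactotransferrin on chromosome 9, 111019271 to 111042767 (GRCm38), had 9909, 10148 and 9842 CPM in EM organoids, against 1331, 1690.2 and 1941 CPM in gland tissue (log2 difference 2.59 ± 0.16, adjusted p = 7.09e-08). Lcn2, a lipocalin that binds bacterial siderophores, had 2689.8, 2655 and 2074 CPM in EM organoids, against 13.7, 20.4 and 15.2 CPM in gland tissue (log2 difference 7.24 ± 0.24, adjusted p = 4.66e-10). Wfdc2, a small secreted protein with a whey acidic protein core, had 974, 1037 and 1028 CPM in EM organoids, against 4.08, 5.65 and 4.89 CPM in gland tissue (log2 difference 7.7 ± 0.23, adjusted p = 2.64e-10). Every EM organoid library lay above every gland library for these genes, under both scalings. Ltf was the only one of the 3 above 100 CPM in the gland. Wfdc18, the 1 tear protein gene not called, had 1181, 1237 and 1725 CPM in EM organoids, against 1048, 1477 and 1294 CPM in gland tissue.

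**Figure D3:**
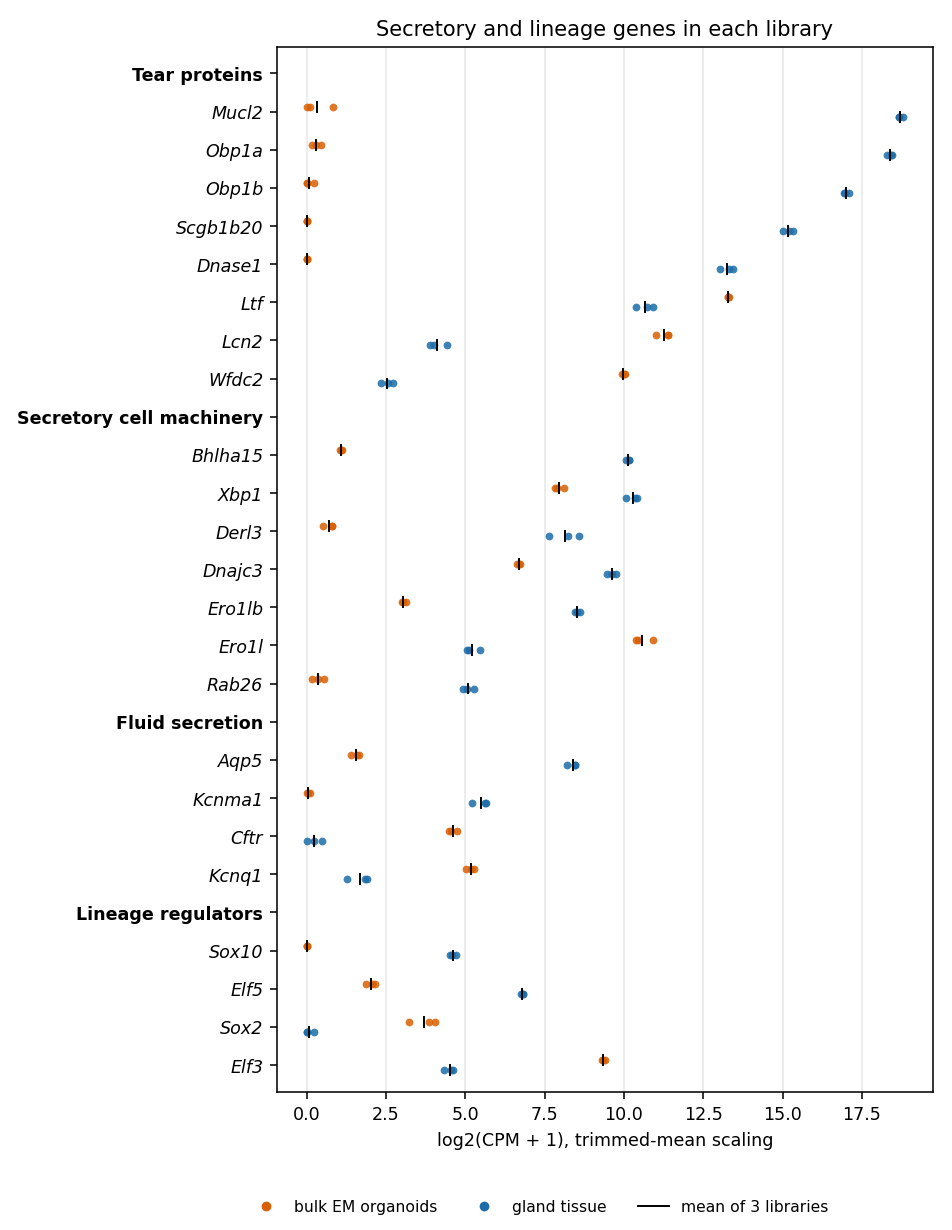
log2(CPM + 1) in each of the 3 EM organoid libraries (upper points of a row) and the 3 gland tissue libraries (lower points), with the mean of each group as a bar. Tear proteins, Bhlha15, Derl3, Aqp5 and Sox10 lie far to the right in gland tissue, while Ltf, Lcn2, Wfdc2, Ero1l, Cftr, Sox2 and Elf3 lie further right in EM organoids, and no row shown overlaps.

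Some regulators of the acinar secretory programme were far lower. Of 12 transcription factors of the secretory and ER stress programmes, 7 were lower and 3 higher, beside 37.4% of all tested genes in each direction. Total counts gave 3 lower and 7 higher, beside 9.49% and 83.8% of all tested genes. The balance of the list thus turned with the scaling. Bhlha15 (Mist1), which drives the secretory architecture of acinar cells, had 1.16, 1.06 and 1.12 CPM in EM organoids, against 1143, 1075 and 1150.2 CPM in gland tissue (log2 difference -9.97 ± 0.19, adjusted p = 2.42e-11). Creb3l1, an ER-bound factor for secretory genes, had 0.208, 0.329 and 0.455 CPM in EM organoids, against 50.1, 46.3 and 59.5 CPM in gland tissue (log2 difference -7.27 ± 0.22, adjusted p = 2.85e-10). Spdef, a factor of secretory epithelia, had 0.913, 1.02 and 0.579 CPM in EM organoids, against 31.2, 34.1 and 43.6 CPM in gland tissue (log2 difference -5.42 ± 0.22, adjusted p = 2.10e-09). These 3 were lower in every organoid library under both scalings. Xbp1, the central factor of the unfolded protein response, had 229, 237 and 278 CPM in EM organoids, against 1069, 1359 and 1299 CPM in gland tissue (log2 difference -2.33 ± 0.15, adjusted p = 9.32e-08), but with total counts its log2 difference of -0.27 was not called. The 3 that rose were the stress factors Ddit3 (Chop), with 57.2, 44.6 and 31.9 CPM in EM organoids, against 4.79, 9.48 and 7.2 CPM in gland tissue (log2 difference 2.64 ± 0.35, adjusted p = 3.30e-05), Atf3 (log2 difference 1.31 ± 0.24, adjusted p = 3.71e-04) and Cebpb (log2 difference 0.96 ± 0.14, adjusted p = 7.84e-05), and for each of them the groups did not overlap.

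The ER machinery that handles secreted proteins was lower with trimmed-mean scaling, and its direction depended on the scaling for most genes. Of 22 tested genes for bringing proteins into the ER, 21 were lower (median -1.72), beside 37.4% of all tested genes. But total counts gave 6 lower and 12 higher, beside 9.49% and 83.8% of all tested genes. The signal peptidase subunit Sec11c had 64.4, 66.8 and 58.7 CPM in EM organoids, against 674, 570.2 and 599.7 CPM in gland tissue (log2 difference -3.28 ± 0.14, adjusted p = 2.46e-09). The translocation protein Tram1 had 75.9, 69.6 and 81.2 CPM in EM organoids, against 618, 589 and 601 CPM in gland tissue (log2 difference -3.0 ± 0.09, adjusted p = 2.67e-10). Both stayed lower with total counts, at -1.22 and -0.94. Of 12 genes of the oligosaccharyltransferase, 11 were lower (median -0.93), yet all 12 were higher with total counts. Tusc3 was the 1 subunit higher under both (log2 difference 1.29 ± 0.13, adjusted p = 2.94e-06), with 31.9, 31.8 and 34.9 CPM in EM organoids, against 12.3, 15.9 and 12.5 CPM in gland tissue. Its paralogue Magt1 had 79.7, 70.6 and 71.6 CPM in EM organoids, against 237, 215 and 243 CPM in gland tissue (log2 difference -1.65 ± 0.09, adjusted p = 2.53e-08), and its total-count value was 0.41.

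Among folding enzymes the 2 ER oxidases parted ways. Ero1lb (Ero1b), the oxidase typical of secretory cells such as those of the pancreas, had 7.22, 6.98 and 7.7 CPM in EM organoids, against 350.3, 367 and 389.5 CPM in gland tissue (log2 difference -5.66 ± 0.1, adjusted p = 1.99e-11). Ero1l (Ero1a), the paralogue known as a target of hypoxia signalling, had 1914, 1379 and 1340.0 CPM in EM organoids, against 33.6, 31.9 and 43.2 CPM in gland tissue (log2 difference 5.41 ± 0.21, adjusted p = 1.42e-09). Each held its direction with total counts, at -3.6 for Ero1lb and 7.46 for Ero1l. Of 27 folding genes, 21 were lower and 3 higher (median -1.33), against 6 lower and 18 higher with total counts and 19 lower and 6 higher without the 14 abundant gland genes. Over all tested genes, 37.4% were called in each direction, and total counts called 9.49% lower and 83.8% higher. The other rises were the disulfide isomerase Pdia4 (log2 difference 0.63 ± 0.17, adjusted p = 0.00601) and the cochaperone Dnajc10 (log2 difference 0.19 ± 0.08, adjusted p = 0.0482). Dnajc10 was not called without the line 6 or 8 organoid library or the line 6 or 7 gland library (adjusted p = 0.0649 to 0.160), and without the line 8 gland library 5 folding genes were higher. The cochaperone Dnajc3 had 105, 103 and 98.1 CPM in EM organoids, against 784, 712 and 866 CPM in gland tissue (log2 difference -2.95 ± 0.1, adjusted p = 4.71e-10).

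ER-associated degradation, which removes misfolded proteins, showed the deepest median of the ER lists, -2.18 over 13 genes. Derl3, a channel component found in secretory cells, had 0.415, 0.731 and 0.745 CPM in EM organoids, against 301, 197 and 383 CPM in gland tissue (log2 difference -8.84 ± 0.31, adjusted p = 6.71e-10). Edem3, a mannosidase that marks misfolded glycoproteins, had 53.2, 54 and 59.2 CPM in EM organoids, against 782, 959.5 and 1125 CPM in gland tissue (log2 difference -4.11 ± 0.14, adjusted p = 4.81e-10). Herpud1, a stress-induced part of the ER degradation complex, had 66.9, 71.8 and 63.5 CPM in EM organoids, against 487, 505 and 770.3 CPM in gland tissue (log2 difference -3.12 ± 0.16, adjusted p = 1.63e-08). All 3 were lower under both scalings and no groups overlapped. In the list, 11 genes were lower, beside 37.4% of all tested genes. Total counts gave 5 lower and 3 higher, beside 9.49% and 83.8% of all tested genes.

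Some of these ER genes share a motif in their promoters. The ER stress response element (ERSE), spelled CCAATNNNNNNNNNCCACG and searched on both strands over the 250 bases before and 50 after each RefSeq gene start, was found in 7 of 23 folding genes that had a promoter sequence (30.4%), in 2 of 11 degradation genes (18.2%), and in none of the 16 translocation or 10 glycosylation genes. Of all genes with a promoter sequence, 37 of 27025 held it (0.137%). The motif was chosen after the values of the lists were known, and a match is a description of letters, not of a bound site. Windows around the match, cut at the transcription start, are shown for the 3 matching genes with the lowest log2 differences, with the motif in capitals (RefSeq, GRCm38.p6, 5′ to 3′ on the gene's strand). They lie at chr10:75893212-75893290, plus strand for Derl3, at chr14:118937797-118937875, plus strand for Dnajc3, and at chr19:6046502-6046575, plus strand for Syvn1, a ubiquitin ligase of ER-associated degradation.
Derl3: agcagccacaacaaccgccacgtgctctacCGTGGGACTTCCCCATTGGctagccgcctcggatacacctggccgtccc
Dnajc3: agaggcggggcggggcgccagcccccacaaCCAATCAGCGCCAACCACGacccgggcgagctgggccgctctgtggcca
Syvn1: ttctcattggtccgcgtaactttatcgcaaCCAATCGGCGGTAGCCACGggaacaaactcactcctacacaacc
The 9 holders of the ERSE in these lists also include Hspa5, Hsp90b1, Pdia6, Calr, Canx and Creld2, whose log2 differences were -0.77, 0.24, -0.39, -0.45, -0.56 and -1.97, beside -8.84 for Derl3, -2.95 for Dnajc3 and -2.18 for Syvn1. Those 9 genes were named for the motif, not for their change.

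Vesicle traffic and granule genes were lower as a list with trimmed-mean scaling: 32 of 34 tested, beside 37.4% of all tested genes, with a median of -1.14. With total counts, 5 were lower and 24 higher, beside 9.49% and 83.8% of all tested genes. Rab26, a small GTPase of secretory granules, had 0.457, 0.292 and 0.124 CPM in EM organoids, against 32.5, 29.2 and 38.1 CPM in gland tissue (log2 difference -6.81 ± 0.31, adjusted p = 5.18e-09). Rab3d, a GTPase of acinar granules, had 66.9, 66.9 and 57.7 CPM in EM organoids, against 437, 418 and 457 CPM in gland tissue (log2 difference -2.78 ± 0.11, adjusted p = 2.31e-09). Both were lower under either scaling, at -4.76 and -0.72 with total counts. Sec23a, a coat subunit of vesicles that leave the ER, was the 1 member that rose (log2 difference 1.19 ± 0.13, adjusted p = 5.90e-06).

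Among the channels of fluid secretion some were higher and others lower. Of 23 tested genes, 12 were higher and 9 lower in EM organoids (median 0.4), beside 37.4% of all tested genes in each direction, against 17 and 5 with total counts, beside 83.8% and 9.49% of all tested genes. The water channel Aqp5 had 1.99, 1.61 and 2.15 CPM in EM organoids, against 353, 295 and 353 CPM in gland tissue (log2 difference -7.44 ± 0.15, adjusted p = 2.52e-11). Kcnma1, the large-conductance potassium channel of acinar cells, had 0, 0.0731 and 0.0414 CPM in EM organoids, against 49.5, 47.8 and 36.4 CPM in gland tissue, and was 1099-fold lower (interval 375 to 5339.8) from 3 organoid counts, with an interval that covers counting error only. The potassium channel Kcnn4 also fell (log2 difference -3.34 ± 0.4, adjusted p = 1.30e-05), while the muscarinic receptor Chrm3 fell with trimmed-mean scaling (log2 difference -2.41 ± 0.27, adjusted p = 8.06e-06) and was not called with total counts (-0.35).

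Other transport genes stood higher in organoids. Cftr, the chloride channel that in exocrine glands is known from ducts, had 22.6, 26 and 21.5 CPM in EM organoids, against 0, 0.182 and 0.386 CPM in gland tissue (log2 difference 6.75 ± 0.57, adjusted p = 7.80e-07). The potassium channel Kcnq1 had 31.7, 38.1 and 35.2 CPM in EM organoids, against 1.42, 2.73 and 2.57 CPM in gland tissue (log2 difference 3.94 ± 0.18, adjusted p = 6.00e-09). For both, the organoid libraries lay above all gland libraries under both scalings.

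Some transcription factors of gland lineages were higher and others lower. Of 30 tested, 14 were higher and 13 lower (median 0.05), beside 37.4% of all tested genes in each direction, against 26 and 3 with total counts. Sox10, a factor of acinar and myoepithelial cells in glands and of Schwann cells, had 0, 0 and 0 CPM in EM organoids, against 22.7, 21.9 and 25.3 CPM in gland tissue, and was at least 593-fold lower. Elf5, a factor of secretory epithelia, had 3.16, 3.47 and 2.65 CPM in EM organoids, against 106, 113 and 113 CPM in gland tissue (log2 difference -5.16 ± 0.14, adjusted p = 1.33e-10). Higher were Sox2, with 8.43, 13.5 and 15.4 CPM in EM organoids, against 0, 0.182 and 0 CPM in gland tissue, 236-fold higher (interval 42.2 to 9329) over 1 gland count, and the epithelial factor Elf3, with 670.1, 638 and 652 CPM in EM organoids, against 22.5, 23.7 and 19.3 CPM in gland tissue (log2 difference 4.91 ± 0.17, adjusted p = 5.58e-10). Tfcp2l1, a factor of epithelial ducts, had 1910.2, 1982 and 1903 CPM in EM organoids, against 85.6, 96.1 and 102 CPM in gland tissue (log2 difference 4.35 ± 0.41, adjusted p = 1.90e-06), and Klf5, a factor of dividing epithelia, rose as well (log2 difference 3.49 ± 0.17, adjusted p = 1.06e-08). For these 4 the organoid libraries lay above every gland library. Foxa1 fell with trimmed-mean scaling (log2 difference -2.28 ± 0.15, adjusted p = 1.05e-07) but was not called with total counts (-0.22), and Otx1 fell with the first (-1.26) and rose with the second (0.8). Pax6, the eye field gene that the series' mutant clones target, had 172, 197 and 149.7 CPM in EM organoids, against 296, 313 and 296 CPM in gland tissue, lower with trimmed-mean scaling (log2 difference -0.8 ± 0.1, adjusted p = 2.32e-05) and higher with total counts (1.26); it was named for its place in the series.

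Keratins, the intermediate filaments of epithelia, rose as a list. Of 18 tested, 15 were higher and 2 lower, with a median of 5.28, and 17 were higher with total counts. Krt15 of basal cells had 157, 158 and 103 CPM in EM organoids, against 0, 0.911 and 0.90 CPM in gland tissue (log2 difference 7.77 ± 0.81, adjusted p = 4.77e-06). Krt6a, a keratin of wounded and growing epithelia, had 273, 209 and 279 CPM in EM organoids, against 0.355, 1.64 and 1.54 CPM in gland tissue (log2 difference 7.7 ± 0.31, adjusted p = 1.92e-09). Krt17, of basal and regenerating epithelia, had 947, 869.8 and 835 CPM in EM organoids, against 4.97, 5.47 and 5.53 CPM in gland tissue (log2 difference 7.37 ± 0.17, adjusted p = 4.66e-11). None of the 3 exceeded 5.53 CPM in a gland library. Krt19, a keratin of ducts, had 542, 623 and 794 CPM in EM organoids, against 3.55, 4.37 and 3.99 CPM in gland tissue (log2 difference 7.36 ± 0.25, adjusted p = 5.05e-10). All 4 were under 6 CPM in every gland library and over 100 CPM in every organoid library. The basal Krt5 (chosen after its values were seen) had 1819, 1994 and 1776 CPM in EM organoids, against 22.5, 32.1 and 33.3 CPM in gland tissue. The ductal Krt7 (chosen likewise) had 1916, 1684 and 1929.5 CPM in EM organoids, against 23.8, 31.7 and 34.6 CPM in gland tissue. The keratins of simple epithelia, Krt8 and Krt18 (chosen likewise), differed less, with log2 differences of 1.44 and 0.39. The 2 lower ones were Krt10 (log2 difference -1.92 ± 0.27, adjusted p = 5.01e-05) and Krt23 (log2 difference -0.29 ± 0.12, adjusted p = 0.0476). No keratin was lower with total counts, so the fall of Krt10 did not hold under that scaling. The groups overlapped for Krt23, which was higher with total counts (1.77) and was not called without the line 6 or 7 organoid library or the line 6 or 7 gland library (adjusted p = 0.0981 to 0.200).

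Genes for attachment to the matrix changed as well. Of 27 genes for basement membrane and its receptors, 16 were higher and 5 lower (median 1.31), beside 37.4% of all tested genes in each direction. Total counts gave 22 higher and 3 lower, beside 83.8% and 9.49% of all tested genes. Lama5, a laminin chain of epithelial basement membranes, had 545, 472 and 457 CPM in EM organoids, against 12.8, 9.48 and 15.2 CPM in gland tissue (log2 difference 5.28 ± 0.16, adjusted p = 2.35e-10). Itga3, an integrin that binds such laminins, had 372, 324 and 355 CPM in EM organoids, against 18.6, 18.2 and 20.4 CPM in gland tissue (log2 difference 4.19 ± 0.15, adjusted p = 7.12e-10). Col17a1, a hemidesmosome collagen of basal cells, had 262, 287 and 268 CPM in EM organoids, against 13.8, 18.2 and 19 CPM in gland tissue (log2 difference 3.99 ± 0.13, adjusted p = 3.59e-10). The collagen receptor Itga1 was lower, with 1.95, 2.34 and 1.37 CPM in EM organoids, against 27.3, 27 and 23.3 CPM in gland tissue (log2 difference -3.76 ± 0.22, adjusted p = 3.28e-08), as was nidogen, Nid1 (log2 difference -2.66 ± 0.18, adjusted p = 1.14e-07). Both are also made by stromal cells, whose markers moved with the groups (given further on), and the part of those cells in this result was not tested.

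Junction genes changed in both directions. Of 31 genes, 22 were higher and 7 lower (median 1.13), beside 37.4% of all tested genes in each direction. Total counts gave 26 higher and 3 lower, beside 83.8% and 9.49% of all tested genes. Cldn10, a claudin that forms ion pores in secretory epithelia, had 0.415, 0.256 and 0.414 CPM in EM organoids, against 330.3, 329.9 and 265 CPM in gland tissue (log2 difference -9.72 ± 0.27, adjusted p = 1.44e-10). The gap junction protein Gjb1 of gland acini had 0.415, 0.366 and 0.331 CPM in EM organoids, against 143, 124 and 143 CPM in gland tissue (log2 difference -8.5 ± 0.21, adjusted p = 7.80e-11). Both were under 1 CPM in every organoid library. Cldn4, a sealing claudin, had 594, 566 and 668 CPM in EM organoids, against 2.13, 3.46 and 5.01 CPM in gland tissue (log2 difference 7.38 ± 0.22, adjusted p = 2.09e-10). The desmosomal plakophilin Pkp1 had 437, 411 and 436 CPM in EM organoids, against 1.42, 4.37 and 4.63 CPM in gland tissue (log2 difference 6.9 ± 0.25, adjusted p = 1.03e-09). Desmoglein Dsg3, with 41.5, 30.3 and 30.4 CPM in EM organoids, against 0.178, 0 and 0 CPM in gland tissue, was 640.3-fold higher (interval 115 to 25302) over 1 gland count. In each of these 5 genes, one group was at 5.01 CPM or less in every library and the other at 30.3 CPM or more.

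Genes of the cornified envelope, the protein shell of stratified epithelia, were higher: 13 of 14 tested (median 5.2), beside 37.4% of all tested genes. All 14 were higher with total counts, beside 83.8% of all tested genes. Of the 23 genes on the list, 11 had no gland count, and 1 of these had no organoid count. Genes without a gland count could pass the filter on low counts only through other libraries and could not be called lower. The count of the list is thus partly set by the filter. Sprr1a, a small proline-rich envelope protein, had 225, 211 and 218 CPM in EM organoids, against 0, 0.729 and 0.643 CPM in gland tissue (log2 difference 8.82 ± 0.29, adjusted p = 5.07e-10). The calcium-binding S100a14 had 256, 228 and 258 CPM in EM organoids, against 0.178, 0.911 and 1.29 CPM in gland tissue (log2 difference 8.19 ± 0.31, adjusted p = 1.10e-09). Lypd3, with 10.8, 10.9 and 10.9 CPM in EM organoids, against 0, 0 and 0 CPM in gland tissue, was at least 68.4-fold higher, a bound set at 3 counts over the gland libraries. The 1 lower member, the calmodulin-like Calml3 (log2 difference -0.62 ± 0.25, adjusted p = 0.0405), had overlapping groups, was higher with total counts (1.44), and was not called without the line 6 or 8 organoid library or the line 6 or 7 gland library (adjusted p = 0.0899 to 0.147).

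Targets of actin-regulated factors and YAP were among the most uniform lists, with 29 of 31 higher (median 2.3) and all 31 higher with total counts. Anxa1, a membrane-binding annexin, had 2780.1, 2639.8 and 2928 CPM in EM organoids, against 85.6, 95.2 and 93.1 CPM in gland tissue (log2 difference 4.93 ± 0.16, adjusted p = 4.75e-10). Anxa3 had 435, 379 and 414 CPM in EM organoids, against 6.39, 7.84 and 7.84 CPM in gland tissue (log2 difference 5.79 ± 0.12, adjusted p = 3.16e-11). The 1 member that fell was the actin-binding thymosin Tmsb4x (log2 difference -0.86 ± 0.15, adjusted p = 3.06e-04), and it was higher with total counts (1.2).

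**Figure D4:**
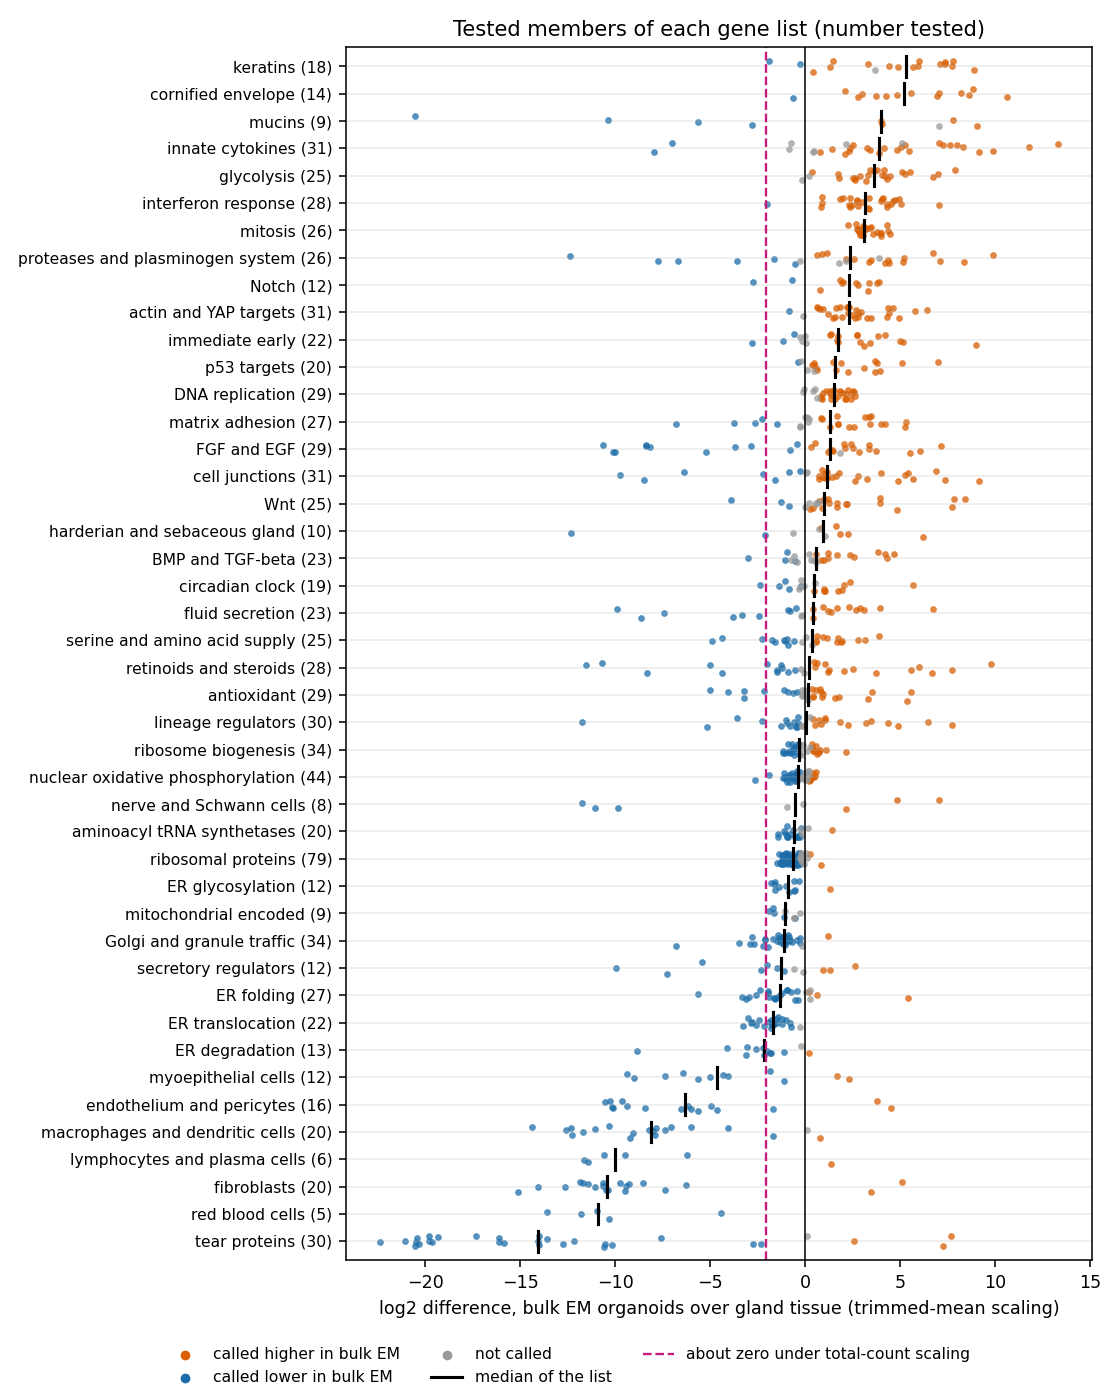
log2 difference, EM organoids over gland tissue with trimmed-mean scaling (x axis), of each tested member (point) of the gene lists except those for salivary gland, fat, muscle and sex-linked genes (rows, number tested in brackets, ordered by median). Points between the solid line at 0 and the dashed line, which lies 2.06 below it, are lower with trimmed-mean scaling and about at or above zero with total counts, which is where most ER glycosylation, ribosomal protein and respiratory chain genes lie, while keratins, glycolysis and mitosis lie right of 0.

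Mucins of different kinds moved in opposite directions. The membrane mucin Muc4 had 546, 517 and 381 CPM in EM organoids, against 0.355, 1.64 and 0.771 CPM in gland tissue (log2 difference 9.05 ± 0.3, adjusted p = 5.40e-10), the second largest rise among genes of at least 100 CPM, predicted genes left out. Muc20 (log2 difference 4.04 ± 0.26, adjusted p = 8.16e-08), Muc1 (log2 difference 4.0 ± 0.35, adjusted p = 9.90e-07) and Muc13, which was 238-fold higher (interval 65.8 to 1968) over 2 gland counts, also rose. The gland's Mucl2 fell, as did Agr2, an ER isomerase for mucins, with 0.83, 1.43 and 0.662 CPM in EM organoids, against 1465, 1115 and 1424 CPM in gland tissue (log2 difference -10.39 ± 0.38, adjusted p = 9.24e-10), and Fcgbp, a secreted mucus protein (log2 difference -5.67 ± 0.43, adjusted p = 3.45e-07). Of 9 tested genes on the list, 4 were higher and 4 lower, beside 37.4% of all tested genes in each direction. The fourth lower gene was Muc15.

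Most innate defence signals tested were higher in organoids. Of 40 genes, 31 were tested, and 23 were higher and 2 lower (median 3.89), beside 37.4% of all tested genes in each direction. Total counts gave 28 higher and 2 lower, beside 83.8% and 9.49% of all tested genes. Of the 40 genes, 11 had no gland count, and 1 of these had no organoid count. Genes without a gland count could pass the filter on low counts only through other libraries and could not be called lower. The count of the list is thus partly set by the filter, and with no filter 5 were lower. Nos2, the inducible nitric oxide synthase, had 102, 49 and 57.2 CPM in EM organoids, against 0, 0 and 0 CPM in gland tissue, and was at least 430.5-fold higher. Csf3, the granulocyte colony-stimulating factor, had 30.8, 20.2 and 21.4 CPM in EM organoids, against 0, 0 and 0 CPM in gland tissue, and was at least 151-fold higher. Neither had a gland count. Lif, a cytokine of the interleukin 6 family, had 160.0, 108 and 143 CPM in EM organoids, against 0.178, 0.547 and 0.771 CPM in gland tissue (log2 difference 8.0 ± 0.4, adjusted p = 1.11e-08). The neutrophil chemokine Cxcl5 had 56.5, 49.9 and 49.8 CPM in EM organoids, against 0, 0.182 and 0.257 CPM in gland tissue, 327-fold higher (interval 112 to 1588). The 2 that fell were abundant in the gland: haptoglobin, Hp, with 11.2, 12 and 14.2 CPM in EM organoids, against 3163, 3139 and 3043 CPM in gland tissue (log2 difference -7.97 ± 0.22, adjusted p = 1.67e-10), and Ccl28, the mucosal chemokine for plasma cells, with 0.913, 0.877 and 1.53 CPM in EM organoids, against 166, 138 and 121 CPM in gland tissue (log2 difference -7.0 ± 0.23, adjusted p = 4.73e-10).

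Interferon response genes, which cells switch on in reply to viral nucleic acid or interferon, were higher in 27 of 28 cases (median 3.15). Oas3, a sensor of double-stranded RNA, had 194, 171 and 153 CPM in EM organoids, against 1.6, 1.09 and 1.29 CPM in gland tissue (log2 difference 7.02 ± 0.34, adjusted p = 9.11e-09). Isg15, a ubiquitin-like modifier, had 148, 121 and 129 CPM in EM organoids, against 4.08, 4.56 and 4.24 CPM in gland tissue (log2 difference 4.95 ± 0.37, adjusted p = 2.80e-07). The nucleic acid sensor Zbp1 had 83.3, 68.1 and 71.9 CPM in EM organoids, against 1.24, 3.1 and 2.31 CPM in gland tissue (log2 difference 5.06 ± 0.44, adjusted p = 1.13e-06). No groups overlapped for these genes, and the rises held under both scalings. The exception was Ifi27, lower with trimmed-mean scaling (log2 difference -2.0 ± 0.32, adjusted p = 1.37e-04) and not called with total counts (0.06). The interferon-stimulated response element (ISRE), spelled GAAANNGAAACT, was searched in the same way. It stood in 9 of the 20 listed genes with a promoter sequence (45.0%), against 82 of 27025 genes (0.303%). The share is taken from the sequences of the listed genes alone, whatever their change, and describes letters, not bound sites. Windows are printed for 3 of the 9, Ifit1, an RNA-binding antiviral protein, Bst2, which tethers budding virus, and the guanylate-binding Gbp2, with matches in capitals (a match on the minus strand reads as the reverse complement).
Ifit1: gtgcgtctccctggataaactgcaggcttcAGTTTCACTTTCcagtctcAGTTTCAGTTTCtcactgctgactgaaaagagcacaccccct
Bst2: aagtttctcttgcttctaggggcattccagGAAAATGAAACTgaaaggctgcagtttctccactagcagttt
Gbp2: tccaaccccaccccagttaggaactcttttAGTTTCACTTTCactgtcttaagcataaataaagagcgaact
They lie at chr19:34640753-34640843, plus strand for Ifit1, at chr8:71537561-71537632, minus strand for Bst2 and at chr3:142620572-142620643, plus strand for Gbp2 (RefSeq, GRCm38.p6). These 3 were chosen for the motif and had log2 differences of 4.07, 3.33 and 1.82. The other 6 were Ifit3, Oas1a, Oas1g, Ddx58, Ifitm3 and Gbp3.

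Proteases and their inhibitors were mostly higher, with 16 of 26 up and 6 down (median 2.37), beside 37.4% of all tested genes in each direction. Total counts gave 21 higher and 3 lower, beside 83.8% and 9.49% of all tested genes. The serine protease Prss22 had 74.4, 39 and 55.3 CPM in EM organoids, against 0, 0 and 0.129 CPM in gland tissue, 1049-fold higher (interval 188 to 41443) over 1 gland count, and the metalloprotease Adam8 had 335, 257 and 304 CPM in EM organoids, against 2.31, 3.28 and 2.83 CPM in gland tissue (log2 difference 6.73 ± 0.18, adjusted p = 1.33e-10). Slpi, an inhibitor of leukocyte proteases, had 49.3, 35.5 and 28 CPM in EM organoids, against 0.178, 0 and 0.129 CPM in gland tissue, 354-fold higher (interval 97.9 to 2925). Both matrix metalloproteases named here were at or near 0 in organoids: Mmp3, with 0, 0 and 0 CPM in EM organoids, against 34.4, 45.8 and 30.7 CPM in gland tissue, was at least 912-fold lower, and Mmp2 had 0.083, 0.219 and 0.124 CPM in EM organoids, against 34.4, 29.3 and 33.7 CPM in gland tissue (log2 difference -7.74 ± 0.3, adjusted p = 1.42e-09).

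**Figure D5:**
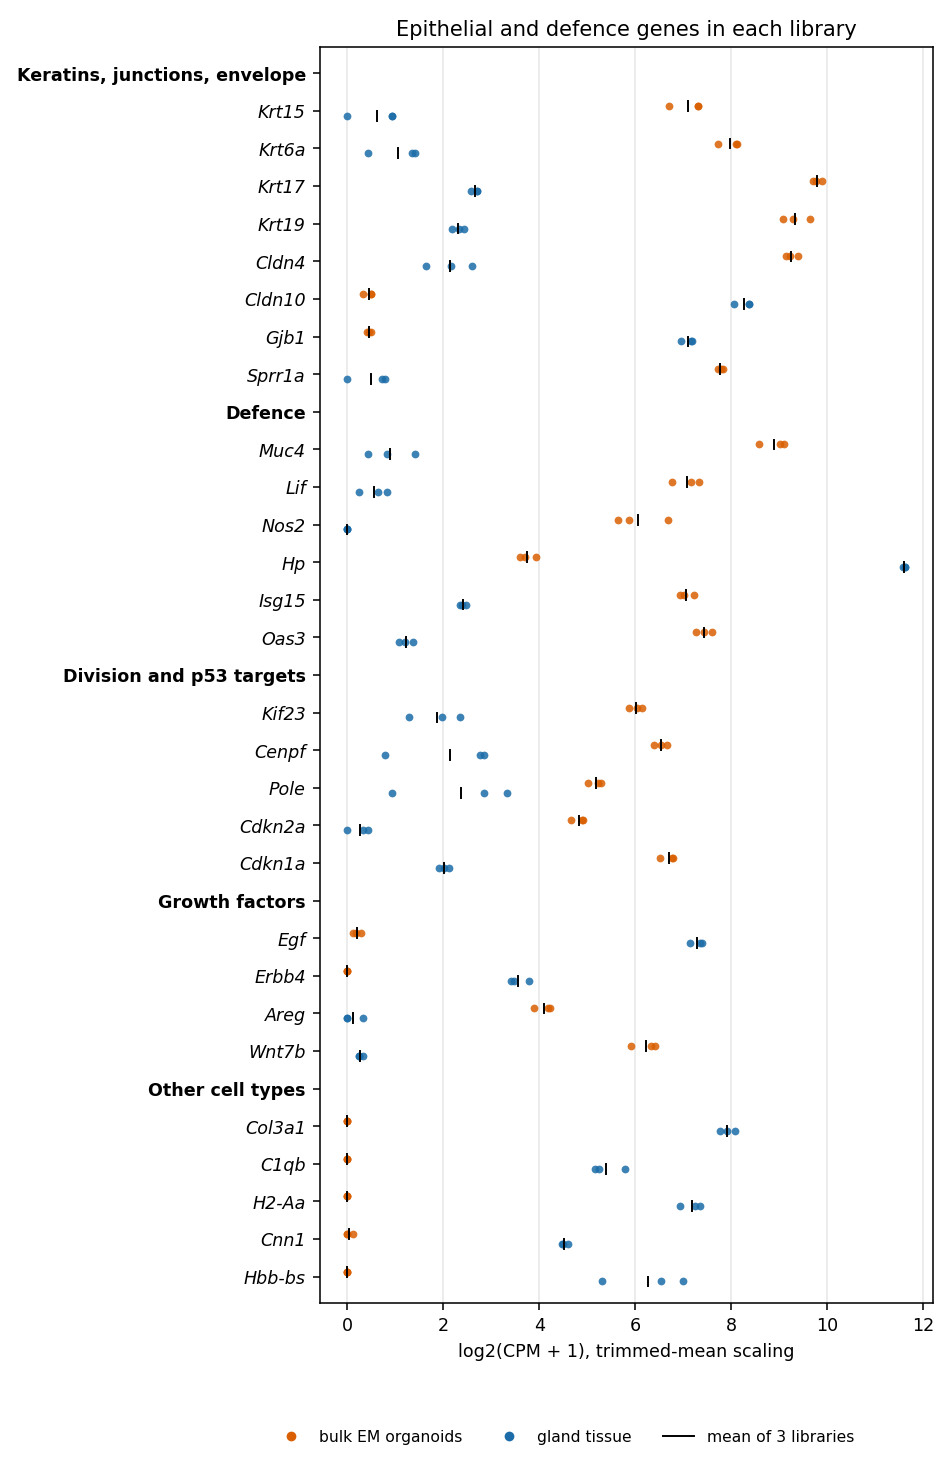
log2(CPM + 1) in each of the 3 EM organoid libraries (upper points of a row) and the 3 gland tissue libraries (lower points), with the group means as bars. Keratins, Muc4, interferon and division genes lie further right in EM organoids, Cldn10, Gjb1, Hp, Egf and the genes of other cell types further right in gland tissue, and one gland library has the lowest Cenpf and Pole values.

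Ligands of the epidermal growth factor family moved in opposite directions. Egf itself had 0.083, 0.219 and 0.124 CPM in EM organoids, against 162, 166 and 140.1 CPM in gland tissue (log2 difference -10.0 ± 0.25, adjusted p = 8.21e-11). Nrg4, a neuregulin, had 0.083, 0 and 0.0828 CPM in EM organoids, against 16.5, 18.6 and 16.3 CPM in gland tissue (log2 difference -8.16 ± 0.43, adjusted p = 1.40e-07). Its receptor Erbb4 had 0, 0 and 0 CPM in EM organoids, against 9.59, 12.8 and 10.2 CPM in gland tissue and was at least 271-fold lower. These 3 were at or near 0 in the organoids. Areg, amphiregulin, had 17.3, 13.7 and 17.6 CPM in EM organoids, against 0, 0 and 0.257 CPM in gland tissue, 152-fold higher (interval 42 to 1258) over 2 gland counts, and Hbegf had 48.3, 24.3 and 47.6 CPM in EM organoids, against 3.91, 2.92 and 4.63 CPM in gland tissue (log2 difference 3.36 ± 0.51, adjusted p = 9.40e-05). The receptor Fgfr3 had 107, 106 and 93.4 CPM in EM organoids, against 1.24, 1.09 and 2.06 CPM in gland tissue (log2 difference 6.06 ± 0.33, adjusted p = 2.16e-08). Of 29 genes on this list, 17 were higher and 11 lower (median 1.3), beside 37.4% of all tested genes in each direction. Total counts gave 20 higher and 8 lower, beside 83.8% and 9.49% of all tested genes. What the expansion medium holds is not given in the labels used here.

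Wnt and Notch genes leaned towards the organoids. Of all tested genes, 37.4% were called in each direction, and total counts called 83.8% higher and 9.49% lower. Of 25 Wnt genes tested, 17 were higher and 3 lower (median 0.99), against 24 and 1 with total counts. The ligand Wnt7b had 79.6, 59.2 and 83.9 CPM in EM organoids, against 0.178, 0.182 and 0.257 CPM in gland tissue (log2 difference 8.41 ± 0.32, adjusted p = 1.28e-09). Wnt4 had 70.5, 78 and 78.2 CPM in EM organoids, against 4.97, 5.83 and 4.24 CPM in gland tissue (log2 difference 3.93 ± 0.14, adjusted p = 8.10e-10). Wnt10a, with 27.1, 24.9 and 25.6 CPM in EM organoids, against 0, 0.182 and 0.129 CPM in gland tissue, was 244-fold higher (interval 67.4 to 2016) over 2 gland counts. None of these ligands exceeded 5.83 CPM in a gland library. Of 12 Notch genes, 10 were higher and 2 lower (median 2.32), and 11 were higher with total counts. The receptor Notch1 had 169, 161 and 155 CPM in EM organoids, against 15.8, 14.6 and 17.4 CPM in gland tissue (log2 difference 3.34 ± 0.14, adjusted p = 2.32e-09). The ligand Jag2 had 87.4, 97 and 91.4 CPM in EM organoids, against 7.99, 8.93 and 10.4 CPM in gland tissue (log2 difference 3.32 ± 0.11, adjusted p = 6.06e-10). The target Hey1 had 22.9, 28.5 and 36.1 CPM in EM organoids, against 1.24, 1.28 and 3.09 CPM in gland tissue (log2 difference 3.87 ± 0.29, adjusted p = 2.87e-07). The groups did not overlap for any gene named here.

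The transforming growth factor beta list held 12 higher and 4 lower genes of 23 (median 0.55), beside 37.4% of all tested genes in each direction, the lower count being 2 without the line 7 gland library. With total counts 22 of the list were higher, and none of its lower calls held. The ligand Tgfb2 had 48.5, 50.9 and 49.6 CPM in EM organoids, against 2.49, 3.65 and 3.99 CPM in gland tissue (log2 difference 3.86 ± 0.18, adjusted p = 5.34e-09). Ltbp1, which holds latent ligand in the matrix, had 129, 133 and 149.8 CPM in EM organoids, against 6.21, 10.03 and 6.69 CPM in gland tissue (log2 difference 4.18 ± 0.15, adjusted p = 7.28e-10). Among retinoid and steroid genes, 14 were higher and 12 lower of 28 (median 0.19), beside 37.4% of all tested genes in each direction, against 21 and 5 with total counts. Genes of retinoid uptake and response were among the rises. Stra6, a receptor for retinol transport, had 71.6, 76.9 and 82.2 CPM in EM organoids, against 0.355, 0.729 and 1.03 CPM in gland tissue (log2 difference 6.69 ± 0.19, adjusted p = 1.80e-10). The retinoic acid receptor Rarb had 30.3, 36.1 and 37.2 CPM in EM organoids, against 0.178, 1.28 and 0.257 CPM in gland tissue (log2 difference 6.01 ± 0.3, adjusted p = 1.03e-08). For both, the organoid libraries lay above every gland library. Crabp2 and Crabp1, which bind retinoic acid in cells, went opposite ways. Crabp2 had 10.3, 14.9 and 12.2 CPM in EM organoids, against 0, 0.182 and 0 CPM in gland tissue, 238-fold higher (interval 42.6 to 9398) over 1 gland count. Crabp1 had 0, 0 and 0 CPM in EM organoids, against 13.7, 7.84 and 11.7 CPM in gland tissue, and was at least 281-fold lower. Akr1c18, an enzyme that inactivates progesterone, had 2.16, 1.54 and 1.74 CPM in EM organoids, against 599, 621 and 542 CPM in gland tissue (log2 difference -8.34 ± 0.18, adjusted p = 3.16e-11).

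Expanding organoids carried far more transcripts of cell division. All 26 of 26 mitosis genes were higher (median 3.11), as were 24 of 29 replication genes (median 1.51), beside 37.4% of all tested genes. Kif23, a motor of cytokinesis, had 69.2, 57.9 and 64.3 CPM in EM organoids, against 1.42, 2.92 and 4.11 CPM in gland tissue (log2 difference 4.44 ± 0.4, adjusted p = 1.51e-06). Cenpf, a kinetochore protein, had 100.2, 82.9 and 91.5 CPM in EM organoids, against 6.21, 0.729 and 5.79 CPM in gland tissue (log2 difference 4.38 ± 0.46, adjusted p = 5.16e-06). Pole, the leading-strand DNA polymerase, had 36.2, 31.4 and 37.9 CPM in EM organoids, against 6.21, 0.911 and 9.0 CPM in gland tissue (log2 difference 2.64 ± 0.47, adjusted p = 3.13e-04). The line 7 gland library was the lowest of the glands for Cenpf and Pole, and the EM organoids lay well above all of them.

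Genes that restrain division rose beside them. Of 20 p53 target and cell cycle arrest genes, 16 were higher and 1 lower (median 1.56), beside 37.4% of all tested genes in each direction. All 20 were higher with total counts, beside 83.8% of all tested genes. The cell cycle inhibitor Cdkn1a (p21) had 109.9, 90.9 and 108 CPM in EM organoids, against 3.02, 2.73 and 3.34 CPM in gland tissue (log2 difference 5.07 ± 0.16, adjusted p = 4.39e-10). Cdkn2a, which encodes p16 and p19Arf, had 29.2, 28.6 and 24.5 CPM in EM organoids, against 0.355, 0 and 0.257 CPM in gland tissue (log2 difference 6.97 ± 0.39, adjusted p = 2.59e-08); counts per gene cannot tell its products apart. Ei24, the 1 lower member (log2 difference -0.4 ± 0.07, adjusted p = 4.34e-04), was higher with total counts (1.66). Without the line 8 gland library, 2 members were lower. Immediate early genes, which answer to growth factors and to handling of tissue, were higher in 15 of 22 cases and lower in 3 (median 1.74). Total counts gave 21 higher and 1 lower, beside 83.8% and 9.49% of all tested genes. Fos had 22.9, 20.8 and 21.8 CPM in EM organoids, against 2.66, 0.547 and 0.514 CPM in gland tissue (log2 difference 4.21 ± 0.38, adjusted p = 1.50e-06). Egr1 had 50.4, 35.9 and 50.2 CPM in EM organoids, against 3.73, 3.46 and 2.7 CPM in gland tissue (log2 difference 3.81 ± 0.32, adjusted p = 7.46e-07), while the nuclear receptor Nr4a2 was lower, with 6.68, 7.82 and 8.82 CPM in EM organoids, against 53.6, 60.7 and 47.7 CPM in gland tissue (log2 difference -2.79 ± 0.19, adjusted p = 1.63e-07).

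With trimmed-mean scaling, some clock genes were higher and others lower. Arntl (Bmal1), the core activator, had 6.14, 4.28 and 8.15 CPM in EM organoids, against 37.6, 31.7 and 29.1 CPM in gland tissue (log2 difference -2.41 ± 0.25, adjusted p = 4.42e-06), with a total-count value of -0.34 that was not called. Its output Dbp had 76.8, 96.2 and 54.3 CPM in EM organoids, against 12.8, 14.4 and 16.2 CPM in gland tissue (log2 difference 2.38 ± 0.2, adjusted p = 9.19e-07). The repressor Per2 had 34.8, 33.9 and 31.8 CPM in EM organoids, against 7.1, 8.93 and 13.5 CPM in gland tissue (log2 difference 1.74 ± 0.19, adjusted p = 7.82e-06). The hour at which samples were taken is not in the labels used here. Of 19 clock genes, 9 were higher and 5 lower (median 0.46), beside 37.4% of all tested genes in each direction, and with total counts 18 were higher.

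Glycolysis was the metabolic list with the largest median, 3.61, with 23 of 25 genes higher, and all 25 higher with total counts. Slc16a3, the lactate exporter, had 63.8, 99.3 and 67.3 CPM in EM organoids, against 0.178, 0.729 and 0.129 CPM in gland tissue (log2 difference 7.88 ± 0.54, adjusted p = 1.53e-07). Car9, a carbonic anhydrase known as a target of hypoxia signalling, had 58.3, 86.6 and 56.7 CPM in EM organoids, against 0.71, 0.729 and 0.257 CPM in gland tissue (log2 difference 6.97 ± 0.53, adjusted p = 3.51e-07). Both were under 1 CPM in every gland library. The aldolase Aldoc had 150.4, 169 and 185 CPM in EM organoids, against 1.07, 1.46 and 2.06 CPM in gland tissue (log2 difference 6.73 ± 0.18, adjusted p = 1.31e-10), and Pfkp, a phosphofructokinase, rose as well (log2 difference 5.52 ± 0.16, adjusted p = 1.91e-10). The line 7 organoids were highest for Slc16a3 and Car9, and no organoid library overlapped the glands.

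The respiratory chain, ribosomes and translation gave mostly small differences, and for most called genes the direction depended on the scaling. Of 79 ribosomal protein genes, 2 were higher and 65 lower with trimmed-mean scaling (median -0.63), but all 79 were higher with total counts (median 1.43). Rps14 had 396, 437 and 387 CPM in EM organoids, against 1291, 1092 and 1025 CPM in gland tissue, a log2 difference of -1.48 that was 0.58 with total counts. Rps2 was higher under both (log2 difference 0.85 ± 0.09, adjusted p = 4.92e-06), and the other higher gene, Rplp2 (log2 difference 0.25 ± 0.08, adjusted p = 0.0182), was not called without the line 8 gland library (adjusted p = 0.0601). Of 44 nuclear genes of oxidative phosphorylation, 10 were higher and 24 lower (median -0.38), against 42 higher and 1 lower with total counts and 16 higher and 20 lower without the 14 abundant gland genes. The 10 higher genes were higher under both main scalings. The 1 lower under both was Uqcrb (log2 difference -2.62 ± 0.09, adjusted p = 8.15e-10), a subunit of complex III.

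Much the same held for mitochondrial transcripts and for making ribosomes. Of 9 transcripts of the mitochondrial genome, 5 were lower (median -1.04) and with total counts 7 were higher; mt-Cytb had 1515, 1758 and 1718 CPM in EM organoids, against 5898, 5412 and 5078 CPM in gland tissue, -1.72 with the trimmed mean and 0.35 with total counts. Of 34 ribosome biogenesis genes, 11 were higher and 18 lower (median -0.33), and all 34 were higher with total counts, so the 11 held under both. With library sizes summed without the 14 abundant gland genes, 12 were higher and 10 lower, so the balance of the list turned there too. Of 20 tRNA synthetases, 16 were lower and 1 higher, and all 20 were higher with total counts; the 1 was Vars, with 252, 247 and 257 CPM in EM organoids, against 88.6, 78.9 and 111 CPM in gland tissue (log2 difference 1.44 ± 0.15, adjusted p = 5.64e-06).

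Genes of amino acid supply included large differences in both directions. Of 25 genes, 12 were higher and 10 lower (median 0.38), beside 37.4% of all tested genes in each direction, against 20 and 2 with total counts. Pycr1, the last enzyme of proline synthesis in mitochondria, had 7.47, 5.85 and 6.87 CPM in EM organoids, against 213, 185 and 215 CPM in gland tissue (log2 difference -4.92 ± 0.12, adjusted p = 7.80e-11). The glutamine transporter Slc38a1 had 4.07, 3.22 and 1.74 CPM in EM organoids, against 67.6, 64.9 and 58.8 CPM in gland tissue (log2 difference -4.4 ± 0.31, adjusted p = 1.73e-07). Ddit4, a stress-induced inhibitor of mTOR signalling, had 473, 438 and 479.9 CPM in EM organoids, against 42.3, 24.4 and 26.7 CPM in gland tissue (log2 difference 3.9 ± 0.19, adjusted p = 7.80e-09). The cystine transporter Slc7a11 rose (log2 difference 3.14 ± 0.36, adjusted p = 1.09e-05). Among 29 antioxidant genes, 14 were higher and 9 lower (median 0.16), beside 37.4% of all tested genes in each direction, against 24 and 4 with total counts. The glutathione transferase Gsto1 had 1463, 1544 and 1305 CPM in EM organoids, against 27, 31 and 33.8 CPM in gland tissue (log2 difference 5.55 ± 0.15, adjusted p = 1.58e-10). The epithelial glutathione peroxidase Gpx2 had 131, 168 and 185 CPM in EM organoids, against 3.55, 4.01 and 4.24 CPM in gland tissue (log2 difference 5.35 ± 0.17, adjusted p = 3.93e-10). The cytosolic Gstm1, with 10.7, 13.4 and 17.1 CPM in EM organoids, against 130.0, 135 and 126 CPM in gland tissue, fell (log2 difference -3.24 ± 0.17, adjusted p = 1.28e-08).

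Markers of cells other than gland epithelium were present in the tissue, and most of them were at or near 0 in the organoids. Such markers could pass the filter on low counts only through other libraries, so they could not be called higher. Of 20 fibroblast genes, 9 had no organoid count, 18 were lower and 2 higher; the sum was 322 to 431 CPM in EM organoids, against 1037 to 1263 CPM in gland tissue. Collagen Col3a1 had 0, 0 and 0 CPM in EM organoids, against 241, 269 and 216 CPM in gland tissue, and was at least 6017-fold lower. The 2 higher ones were Fbln1, with 133, 133 and 144 CPM in EM organoids, against 4.26, 4.19 and 3.6 CPM in gland tissue (log2 difference 5.1 ± 0.31, adjusted p = 5.44e-08), and fibronectin, Fn1, with 233, 187 and 286 CPM in EM organoids, against 22.2, 22.8 and 19.9 CPM in gland tissue (log2 difference 3.45 ± 0.21, adjusted p = 4.55e-08), matrix genes that epithelial cells can make too, and they carry nearly the whole organoid sum. Of 22 macrophage and dendritic cell genes, 9 had no organoid count and 18 of 20 tested were lower; the sum was 26 to 46.2 CPM in EM organoids, against 629 to 822 CPM in gland tissue. C1qb, a complement gene of macrophages, had 0, 0 and 0 CPM in EM organoids, against 35, 54 and 36.9 CPM in gland tissue, and was at least 1040.3-fold lower. The class II gene H2-Aa had 0, 0 and 0 CPM in EM organoids, against 150.0, 163 and 121 CPM in gland tissue and was at least 3577-fold lower. The 1 higher gene, Cd68 (log2 difference 0.77 ± 0.33, adjusted p = 0.0499), had overlapping groups and was not called without the line 6 or 7 organoid library or the line 6 or 8 gland library (adjusted p = 0.0654 to 0.171). Of 26 lymphocyte and plasma cell genes only 6 passed the filter on low counts, of which 5 were lower and 1, the kinase gene Lck, was higher, a count that was 2 without the line 6 and 0 without the line 7 organoid library. The sum over the list was 2.48 to 3.29 CPM in EM organoids, against 42.3 to 143 CPM in gland tissue. Igha, the immunoglobulin A heavy chain, had 0, 0 and 0 CPM in EM organoids, against 62.3, 2.37 and 2.19 CPM in gland tissue, so that 1 gland library carried most of it. The leukocyte marker Ptprc had 0, 0 and 0 CPM in EM organoids, against 8.88, 15.1 and 7.71 CPM in gland tissue.

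Most vessel and red cell genes tested were lower too, while the nerve genes tested were not mostly lower. With no filter on low counts, 7 of the 14 nerve genes were lower, against 3 of the 8 tested. Of 20 endothelial and pericyte genes, 9 had no organoid count, 14 were lower and 2 higher; the sum was 341 to 392 CPM in EM organoids, against 133 to 144 CPM in gland tissue, most of it in organoids from the 2 higher genes. Pecam1, an endothelial adhesion molecule, had 0, 0.0366 and 0.0414 CPM in EM organoids, against 9.41, 14.8 and 9.77 CPM in gland tissue. The 2 higher ones were Flt1, a receptor for vascular growth factors, with 297, 239.7 and 227 CPM in EM organoids, against 14.2, 9.84 and 9.9 CPM in gland tissue (log2 difference 4.5 ± 0.19, adjusted p = 2.97e-09), and Notch3 (log2 difference 3.79 ± 0.19, adjusted p = 1.06e-08). The red cell gene Hbb-bs had 0, 0 and 0 CPM in EM organoids, against 126, 38.5 and 91.3 CPM in gland tissue, and all 5 tested haemoglobin and red cell genes were lower, with a sum of 0.166 to 0.414 CPM in EM organoids, against 64.3 to 207 CPM in gland tissue. At that organoid level they could pass the filter on low counts only through other libraries. The direction of these calls was thus set in advance. Of 8 nerve and Schwann cell genes tested, Sox10, Pmp22 and Scn7a were lower, and 3 genes were higher: Mbp (log2 difference 2.16 ± 0.15, adjusted p = 1.44e-07), Ncam1, with 3.4, 2.52 and 3.6 CPM in EM organoids, against 0, 0.182 and 0.129 CPM in gland tissue, and Ncmap, which had no gland count. Fat and muscle genes averaged under 10 CPM in both groups, apart from the lipase Lipe, with 89.3, 99.4 and 112 CPM in EM organoids, against 11.5, 8.93 and 10.4 CPM in gland tissue (log2 difference 3.28 ± 0.2, adjusted p = 5.31e-08), and Lpl, with 0.623, 2.05 and 0.538 CPM in EM organoids, against 26.3, 22.8 and 21.6 CPM in gland tissue (log2 difference -4.42 ± 0.43, adjusted p = 2.52e-06). These lists changed together with the tear proteins and the secretory genes, and how much of the other results they carry was not tested.

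Genes of myoepithelial cells, the contractile layer of the gland, were mostly lower in the organoids. Of 12 tested genes, 10 were lower and 2 higher (median -4.66), and the sum was 255 to 296 CPM in EM organoids, against 517 to 543 CPM in gland tissue. Smooth muscle myosin, Myh11, had 0.0415, 0.256 and 0.124 CPM in EM organoids, against 72.6, 85.5 and 74.4 CPM in gland tissue (log2 difference -8.99 ± 0.33, adjusted p = 1.00e-09). Calponin, Cnn1, had 0.083, 0 and 0 CPM in EM organoids, against 21.5, 23.3 and 21.1 CPM in gland tissue, 826-fold lower (interval 227 to 6845) from 2 organoid counts. The smooth muscle actin gene Acta2 (chosen after its values were seen) had 6.19, 5.78 and 5.26 CPM in EM organoids, against 112, 119 and 109.5 CPM in gland tissue. The 2 higher genes, Tpm2 (log2 difference 2.3 ± 0.09, adjusted p = 1.99e-09) and Smtn (log2 difference 1.67 ± 0.19, adjusted p = 8.55e-06), are actin-binding proteins of many cells. Basal keratins rose in the same organoid libraries, as given above. Smooth muscle of vessels shares these markers, so the list does not single out myoepithelial cells.

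The 10 largest rises were taken among genes of at least 100 CPM called higher under both scalings, with predicted genes left out. They were of Pthlh, Muc4, Sprr1a, S100a14, Lif, Krt15, Krt6a, Wfdc2, Cldn4 and Krt17. These genes were also expressed in other organoids, for which no gland tissue was counted alongside. Pthlh, a parathyroid hormone-like factor, had 172, 131 and 137 CPM in EM organoids, against 0.178, 0 and 0.129 CPM in gland tissue, 1382-fold higher (interval 382 to 11410.2) over 2 gland counts. The 2 wildtype organoid clones in EM, counted in another table and scaled apart, had 253 and 124 CPM of Pthlh, 476 and 291 CPM of Muc4 and 1314 and 1154 CPM of Wfdc2. Krt15, with the largest standard error of the 10, reached 1056 and 1582 CPM in the clones. Lif, at 73.7 and 68.5 CPM, was the only one of the 10 below 100 CPM there. Of the 10 largest falls, Mucl2, Obp1a, Obp1b, Scgb1b20, Scgb2b24, Scgb2b7, Scgb1b2 and Scgb1b7 had 0 CPM in both clones. Dnase1, without a count in the bulk EM organoids, had 1.03 and 0.75 CPM in the clones, and Scgb1b24 had 0 and 0.0469 CPM. No test was made across the tables.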

How the data were processed

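RNA was sequenced as stranded polyadenylated libraries, per the labels' protocols. Per the submitters' processing notes, STAR, featureCounts and GRCm38 were used, with no versions or settings named. The authors deposited whole-number counts per gene without normalisation. Of 38293 gene IDs, 36429 matched GENCODE M21, which gave symbols and positions on GRCm38 (0.313% of counts lay on others), and 16493 had no counts.

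All 9 libraries of the table (gland tissue, bulk EM and bulk differentiation medium) were fitted with edgeR 4.0.16 in R 4.3.3: filterByExpr, trimmed mean of M-values, quasi-likelihood F test, 6 residual degrees of freedom, Benjamini-Hochberg over 13713 genes, called at 0.05. The standard error is the log2 difference divided by the square root of F. DESeq2 1.42.0 was an alternative. A gene at or near 0 in 1 group could pass filterByExpr only through other libraries. The direction of its call was thus set in advance, which bears on the counts of lists with such members. The steps were tested on simulated data.

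The 48 lists (1199 of 1203 names matched, 1027 passing the filter on low counts) and the groups compared were chosen with earlier results of these data known. Named were the 10 genes with most counts per group, the 10 largest rises and falls of at least 100 CPM held under both scalings, without predicted genes, and, per list, up to 4 called genes of at least 10 CPM with the largest difference in each direction, plus those behind a count of 5 or fewer. Others are marked as chosen otherwise. A few genes that this rule names are not reported here. Groups with 0 counts get a bound at 3 counts over the group. Those with 1 to 3 get a ratio with an exact 95% interval, which covers counting error only. Bounds and ratios are on trimmed-mean library sizes, and total counts would make them smaller for falls and larger for rises. Values of the clones are counts of the other deposited table, scaled by its own trimmed mean. Promoters were RefSeq's, on GRCm38.p6.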

Additional observations from a re-analysis of the deposited data

How the results depend on the processing

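Of the settings tried, only total-count scaling moved a count over all genes, or over all lists together, by more than 1.5 times. It gave 11493 genes higher in EM organoids and 1302 lower, against 5130 and 5129 with trimmed-mean scaling. Called genes with a log2 difference of at least 1 came to 11725, against 6316, and the members of all lists called to 804 higher and 163 lower, against 453 and 443. Of the genes named for the size of their difference, 43 were lower with trimmed-mean scaling and above zero with total counts. Their total-count log2 differences, EM organoids minus gland tissue, were Ifi27 0.06, Atp5j 0.18, mt-Nd2 0.18, Krtcap2 0.27, Asns 0.31, mt-Cytb 0.35, mt-Nd4 0.41, Magt1 0.41, Prss8 0.42, Cth 0.46, Tmem258 0.47, Dad1 0.47, Cldn8 0.49, Rps14 0.58, Tars 0.62, Lars 0.63, Rora 0.66, Rps7 0.67, Rps25 0.72, Tnfrsf19 0.79, Otx1 0.80, Rps24 0.81, Wdr74 0.87, Dusp5 0.87, Cox7b 0.90, Bop1 0.92, mt-Nd1 0.94, Rars 0.95, Ndufb9 0.97, Hars 1.00, Heatr1 1.02, Id2 1.08, Wdr12 1.13, Rnf43 1.19, Cry2 1.19, Tmsb4x 1.2, Lfng 1.37, Calml3 1.44, Dusp4 1.46, Bmpr1a 1.52, Ctsl 1.53, Ei24 1.66 and Krt23 1.77. This follows from the shift between the scalings, since all lay less than 2.06 below zero.

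The other settings left the number of called genes within 1.5 times of 10259. It was 10265 with DESeq2 size factors in the same fit, 10343 with library sizes summed without the abundant gland genes, 10141 with DESeq2's Wald test, 11600 with no filter on low counts and 10195 with only the 6 libraries compared. Leaving out 1 library at a time gave 9885 to 9976. With the line number as a replicate block it was 10219, with 5118 higher and 5101 lower. The numbers were not taken to pair the libraries: the correlation of deviations from the group means between organoid and gland libraries of the same number was -0.0351, 0.0738 and 0.0508, and not every library correlated best with its own number. No gene named for the size of its difference reversed under any of these settings. The genes so named that lost their call under one of them were Krt23, Dnajc10, Dusp4, Calml3, Cd68, Rplp2 and Ctsl. Genes named for other reasons were not all followed in this way, and Lck among them lost its call without the line 7 organoid library.

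Counts of single lists moved more often. Of 96 such counts, each list in each direction, 52 moved by more than 1.5 times with total counts, 14 with no filter on low counts, 8 without the abundant gland genes, 3 with the replicate block and 1 with DESeq2 size factors, and 2 to 5 when 1 library was left out. Without the abundant gland genes, 10 ribosome biogenesis genes were lower, against 18, 16 nuclear genes of oxidative phosphorylation were higher, against 10, and 4 ribosomal protein genes were higher, against 2. With no filter, 14 lymphocyte and plasma cell genes and 7 nerve genes were lower, against 5 and 3.

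Depth limits the gland side most. A floor of 3 counts over a group is 0.0397 CPM in EM organoids and 0.159 CPM in gland tissue, so low genes can be read further down in the organoids. With 3 libraries a group, the spread between animals or culture rounds is not known. The direction of a gene between the scalings cannot be settled from these counts, since RNA per cell was not measured.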

Other observations

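Some immune, blood and division genes differed among the gland libraries. Igha had 62.3 CPM in the line 6 gland, against 2.37 and 2.19 CPM in the line 7 and 8 glands, and Igkc had 38.7, 10.4 and 7.46 CPM. Hbb-bs had 126, 38.5 and 91.3 CPM, lowest in the line 7 gland, which was also lowest in Cenpf at 0.729 CPM, against 6.21 and 5.79 CPM in the line 6 and 8 glands. None of these immunoglobulin or haemoglobin genes had a count in any EM organoid library.

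Opposite changes stood within 4 pairs of related genes: Ero1l and Ero1lb, Crabp2 and Crabp1, Cldn4 and Cldn10, Areg and Egf. The first of each pair was higher and the second lower in EM organoids under both scalings, so these orders within a pair do not depend on the scaling. The pairs were picked after their values were seen.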
